A study of Mus musculus with 6 samples.

Results

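Cells of a vessel wall are held together by adherens junctions, tight junctions and gap junctions, and 48 genes of these junctions were followed in mouse skin endothelium, sorted from 3 wild-type mice and from 3 mice that lack APJ. APJ is the receptor for the peptide apelin and is encoded by Aplnr. The members were taken by name, as probes whose accession maps to 1 of the 48 symbols, out of 20018 symbols with a probe on the array. Per the labels, every sample came from a C57Bl/6J mouse, wild type in 3 and APJ KO in 3, sorted by flow cytometry and not treated afterwards. The labels do not describe the allele, the sort markers or the age, although the scanner file names carry an embryonic stage, and they number 1 mouse per sample. No label says whether litters were shared, so p-values reflect the spread among 6 samples only.

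In adherens junctions, cadherins bind the same cadherin on the next cell and are tied to actin by catenins. In tight junctions, claudins and MARVEL proteins seal the gap between cells and are anchored by scaffolds of the zonula occludens family, while connexins form gap junction channels that pass small molecules from cell to cell. VE-cadherin and Cldn5 are the adherens and tight junction proteins that endothelium is best known for, and both are regulated when vessels become leaky. Other members, such as Cldn1, Gjb2 and Gjb6, are known from epidermis, which a skin dissociation also contains.

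No tested junction gene passed the test between the 2 genotypes. Of the 36 tested, 31 (86.1%) differed by at most 0.2 on the log2 scale, as did 77.6% of everything tested. Not passing does not show equality, and the intervals given below set the limits. The other 12 members were too dim to test. The values are log2 signals relative to the 75th percentile of the same array, and a gene was tested if its probe was well above background, by the scanner software's call, on all 3 arrays of a genotype. Of the 36 tested members, 35 were well above background on all 6 arrays, and 1 (Gja3) passed through wild type alone. Over everything tested, 0.557% of 24232 genes and unnamed probes passed the limma test after Benjamini-Hochberg adjustment, against 0 of 36 members. By direction the background was 0.371% higher and 0.186% lower. At an unadjusted limma p under 0.05 there were 3 members, against a background of 8.01%, and 3 members had genotypes that did not overlap (8.33%, against 12.2% of everything tested). The median log2 difference, APJ knockout minus wild type, was -0.01 over the 36 members and -0.02 over everything tested.

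The data set limits on the size of any change. The 95% interval of the limma fit reached 0.31 to either side of the difference in the median member. For 27 of the 36 members the whole interval lay within a 1.5-fold change, and for 34 within a 2-fold change, the other 2 being Cldn11 and Tjp3. Arrays on 2 slides were compared, with replicates 1 and 2 of each genotype on slide 1 and replicate 3 of each on slide 2, so each slide held both genotypes.

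**Figure D1:**
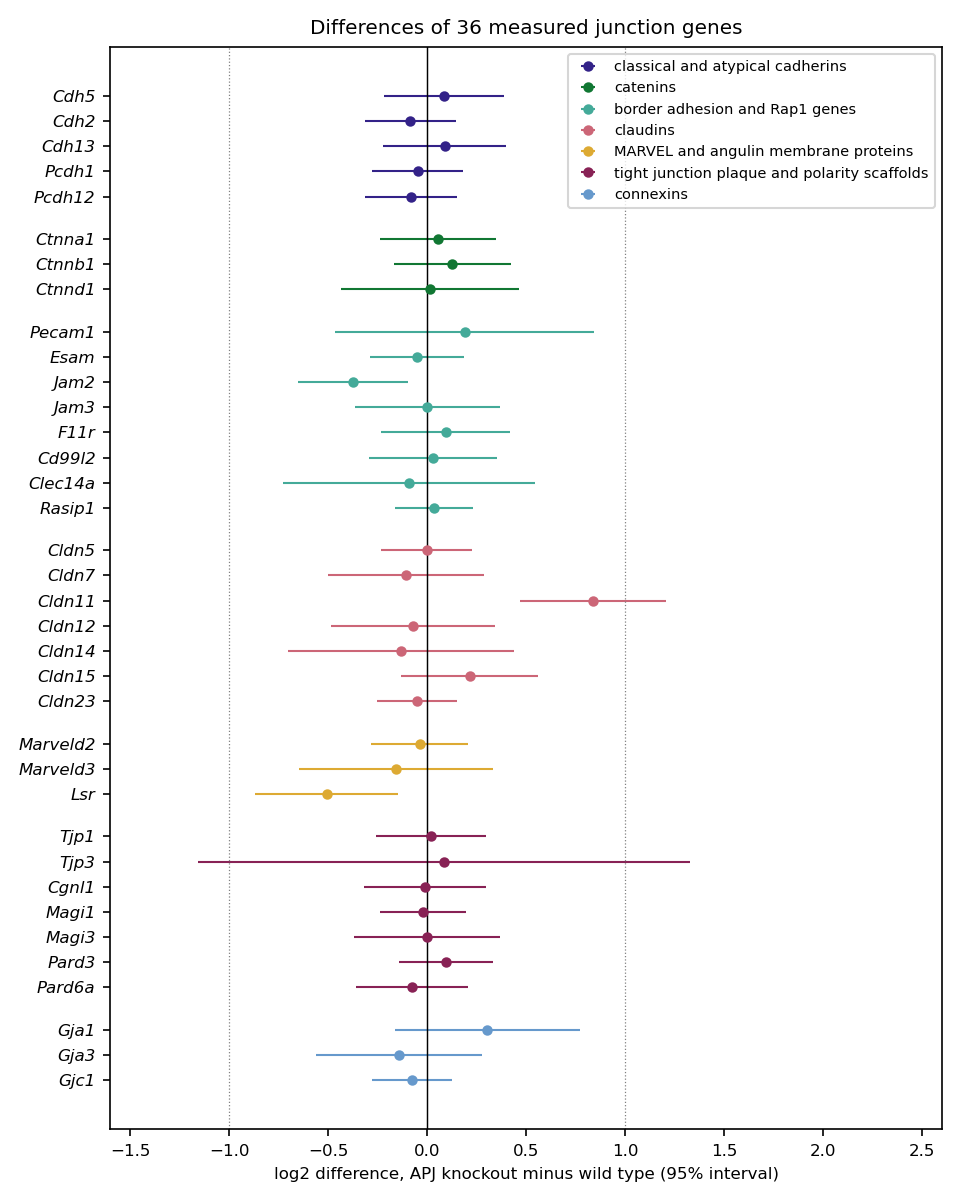
The log2 difference of each of the 36 tested members (APJ knockout minus wild type, 3 arrays each) is drawn as a point with its 95% limma interval, grouped by class, with dotted lines at a 2-fold change. The points cluster around 0, while Cldn11 lies at 0.84 and Lsr and Jam2 at -0.51 and -0.37.

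The sample labels matched the targeted gene. Aplnr, on chromosome 2, read 3.35, 3.78 and 3.83 in wild type and 1.90, 1.72 and 2.26 in the knockout, a difference of -1.69 ± 0.19 (SE, n = 3 per group, limma adjusted p = 0.0238). Its adjusted p was 0.0782 with the replicate number as a block. Leaving out 1 array gave adjusted p-values of 0.0347 to 0.131. No source used here places its probe relative to the deletion, so the check is partial. All 18 pan-endothelial markers were well above background on all 6 arrays, with a summed signal of 1379 to 1490 in wild type and 1427 to 1554 in the knockout, in multiples of the 75th percentile. Among the 16 keratinocyte markers the summed signal was 10.67, 17.5 and 37.7 in wild type replicates 1 to 3 and between 11.1 and 12.05 in the knockout. Wild type replicate 3 was thus the highest, and replicate 2 also lay above every knockout array. Of the 12 tested keratinocyte markers 1 was higher in the knockout, with a median difference of -1.17 and none passing. Of these 12, 9 were well above background on all 6 arrays, and the others passed the filter through 1 genotype alone. The summed signals of 10 fibroblast, 10 mural cell and 11 macrophage markers overlapped between the genotypes, as did those of the Schwann and melanocyte, neuron, skeletal muscle and erythroid lists. In the neuron list 1 of 5 tested genes, Rbfox3, was called, against 0.557% of everything tested. The 5 had a median difference of -0.007, with 2 higher in the knockout. Platelet markers summed to 5.85 to 6.31 in wild type and 7.12 to 9.24 in the knockout, without overlap. In these sorted samples, fewer cells of a type and less RNA per cell cannot be told apart.

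Core genes of the adherens junction overlapped between the genotypes. Cdh5, which encodes VE-cadherin and lies on chromosome 8, read 5.32, 5.49 and 5.23 in wild type and 5.48, 5.59 and 5.23 in the knockout. The genotypes overlapped, with the lowest arrays of both on slide 2, and the difference was 0.09 ± 0.13 (SE, n = 3 per group; 95% interval -0.22 to 0.39). Among the catenins, Ctnna1, the α-catenin that couples cadherins to actin, read 6.32, 6.28 and 6.13 against 6.35, 6.46 and 6.09 (difference 0.06 ± 0.12). Ctnnb1, the β-catenin that also acts in Wnt signalling, read 5.03, 4.90 and 4.79 in wild type and 5.16, 5.11 and 4.83 in the knockout, a difference of 0.13 ± 0.12. Ctnnd1, which stabilises cadherins at the surface, read 4.89, 4.95 and 4.41 against 4.84, 4.95 and 4.50, a difference of 0.02 ± 0.19. In Ctnnd1 the arrays of slide 2 were the low ones in both genotypes.

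The other cadherins did not separate the genotypes either. Cdh2, the N-cadherin that endothelial cells use towards mural cells, read 0.92, 1.05 and 0.90 in wild type and 0.86, 0.78 and 0.98 in the knockout. Its difference was -0.08 ± 0.10 (SE, n = 3 per group), and another probe of Cdh2 gave -0.13. Cdh13, the lipid-anchored T-cadherin, read 3.08, 3.49 and 3.24 against 3.48, 3.28 and 3.32 (difference 0.09 ± 0.13). The protocadherins Pcdh1 and Pcdh12, the second of them an endothelial gene, differed by -0.05 ± 0.10 and -0.08 ± 0.10. Pcdh12 read 5.66, 5.74 and 5.51 in wild type and 5.59, 5.59 and 5.48 in the knockout. The 5 tested cadherins had a median difference of -0.05, with 2 above and 3 below 0, and all 3 tested catenins lay above 0 with a median of 0.06.

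**Figure D2:**
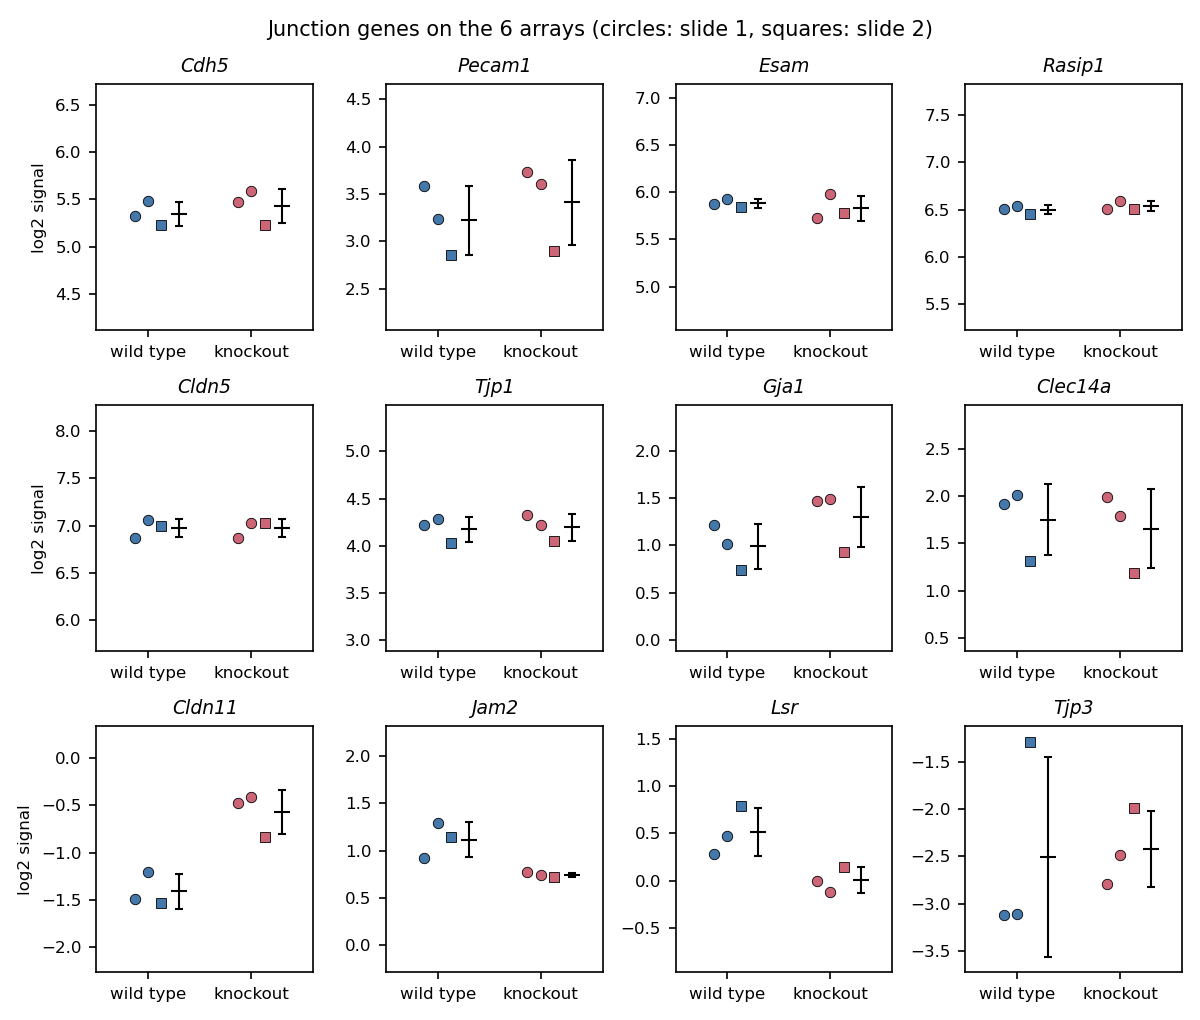
Log2 signals of 12 members on the 6 arrays are shown, relative to each array's 75th percentile, with circles for slide 1, squares for slide 2 and the mean ± SD of 3 arrays beside them; every panel spans the same range. Wild type and knockout overlap in the upper 8 panels and in Tjp3, and separate in Cldn11, Jam2 and Lsr.

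Border adhesion genes gave 1 member with separated genotypes, Jam2. It encodes a junctional adhesion molecule of endothelium that binds JAM-C, and lies on chromosome 16. Jam2 read 0.92, 1.29 and 1.14 in wild type and 0.77, 0.74 and 0.72 in the knockout, where the 3 arrays lay close together. The difference was -0.37 ± 0.11 (SE, n = 3 per group; 95% interval -0.65 to -0.10), or 77.2% of the wild-type level, and did not pass (limma adjusted p = 0.369). An exact two-sided permutation test gave 0.1, the smallest p that 3 arrays against 3 allow. Groups of 3 that do not overlap always give this value, so it adds nothing to the separation here or for Cldn11 and Lsr. The difference was -0.35 within slide 1 and -0.42 within slide 2. Jam3, which encodes the partner JAM-C, read 2.49, 2.51 and 2.18 against 2.56, 2.49 and 2.14, a difference of 0.00082 ± 0.15.

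The remaining border genes overlapped between genotypes. Pecam1, which encodes the adhesion receptor CD31, read 3.58, 3.24 and 2.85 in wild type and 3.74, 3.60 and 2.90 in the knockout. Its difference of 0.19 ± 0.27 (SE, n = 3 per group) has a wide interval, -0.46 to 0.85, and its lowest array in each genotype was on slide 2. Esam, an endothelial adhesion molecule at tight junctions, read 5.87, 5.93 and 5.84 against 5.73, 5.98 and 5.78 (difference -0.05 ± 0.10). F11r, which encodes JAM-A, differed by 0.09 ± 0.14, and Cd99l2, used by leukocytes that cross the vessel wall, by 0.03 ± 0.13.

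F11r read 5.58, 5.59 and 5.27 in wild type and 5.60, 5.73 and 5.40 in the knockout. Clec14a, an endothelial C-type lectin, read 1.91, 2.02 and 1.32 against 1.99, 1.79 and 1.19, a difference of -0.09 ± 0.26. A second probe of Clec14a gave -0.12. Rasip1, a Rap1 effector needed for vessel lumens, was the steadiest of the members, with an SD of 0.05 over the 6 arrays. It read 6.50, 6.54 and 6.45 in wild type and 6.50, 6.60 and 6.50 in the knockout, a difference of 0.03 ± 0.08 with a 95% interval of -0.16 to 0.23.

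Among claudins, Cldn5 was level and Cldn11 was higher in every knockout array, without passing the test. The upstream sequence of both, with that of Lsr, is shown because these are the endothelial claudin without a difference and the members with the largest differences in each direction. Each is the 250 bases before the annotated start in RefSeq, 5′ to 3′ on the gene's strand, in build GRCm38.p6, whereas the array was annotated on mm9. Capitals mark matches on either strand to the ETS core AGGAAG, the GC box GGGCGG, the TATA box TATAAA or the E-box CACCTG, and no matches overlapped. The RefSeq promoter table used here held an entry for 34 of the 48 members, Cdh5 and Jam2 not among them.
Cldn5: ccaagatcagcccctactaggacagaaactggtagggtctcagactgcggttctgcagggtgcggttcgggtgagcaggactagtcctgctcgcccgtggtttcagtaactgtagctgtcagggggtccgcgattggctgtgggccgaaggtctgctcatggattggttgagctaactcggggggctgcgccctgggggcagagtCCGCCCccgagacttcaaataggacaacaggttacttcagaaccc
Cldn11: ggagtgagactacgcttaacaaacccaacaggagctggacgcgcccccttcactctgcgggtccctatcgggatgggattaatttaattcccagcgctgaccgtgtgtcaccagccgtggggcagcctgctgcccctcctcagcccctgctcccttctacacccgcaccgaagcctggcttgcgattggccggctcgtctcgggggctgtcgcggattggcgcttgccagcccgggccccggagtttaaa
Lsr: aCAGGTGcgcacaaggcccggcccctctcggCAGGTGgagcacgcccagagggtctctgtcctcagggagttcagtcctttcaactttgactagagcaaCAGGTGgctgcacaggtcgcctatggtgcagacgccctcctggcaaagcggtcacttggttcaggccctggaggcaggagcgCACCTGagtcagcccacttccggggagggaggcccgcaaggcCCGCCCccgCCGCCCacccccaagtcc

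The Cldn5 window (chr16:18776597-18776846, plus strand) held 1 GC box, the Cldn11 window (chr3:31149670-31149919, plus strand) no match to any of the 4 motifs, and the Lsr window (chr7:30973470-30973719, minus strand) 2 GC boxes and 4 E-boxes. Of 32851 annotated windows of that length, 32.7% held the GC box, 17.2% the E-box, 29.5% the ETS core and 12.4% the TATA box. These matches describe letters and not binding sites.

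Cldn5, the main claudin of endothelium, read 6.87, 7.06 and 6.99 in wild type and 6.87, 7.02 and 7.03 in the knockout. Its mean was 6.98 ± 0.10 against 6.97 ± 0.09 (SD, n = 3 each), and the 95% interval of the difference ran from -0.23 to 0.23. Cldn11, known as the claudin of myelin and of the blood-testis barrier, read -1.49, -1.20 and -1.54 in wild type and -0.47, -0.41 and -0.84 in the knockout. The groups did not overlap, and the difference of 0.84 ± 0.15 (SE, n = 3 per group; 95% interval 0.47 to 1.20) is a 1.78-fold higher level.

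The adjusted limma p for Cldn11 was 0.105 and it was 0.0371 with the slide as a block, where Cldn11 was the 1 member that passed, against 1.2% of everything tested (0.784% higher and 0.417% lower). With the replicate number as a block it was 0.0912, and no member passed, against 0.0206% of everything tested (0.0165% higher and 0.00413% lower). The exact permutation p was 0.1. The difference was 0.90 within slide 1 and 0.70 within slide 2. Markers of lymphatic endothelium lay on the same side: all 7 tested markers lay above 0, with a median of 0.50, none passing, and their summed signal was 533 to 622 in wild type and 577 to 649 in the knockout. The 10 tested macrophage markers had a median of 0.79, with 9 above 0 and none passing. They summed to 14.3 to 26.9 in wild type and 16.6 to 25.8 in the knockout. Of these 10, only 6 were well above background on all 6 arrays. The others passed the filter through 1 genotype alone, which can favour a difference towards that genotype. The part of lymphatic or macrophage RNA in the Cldn11 result was not tested. The Schwann and melanocyte markers had a median of 0.01 over 5 tested genes.

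The other tested claudins overlapped between genotypes. Cldn7 read -1.07, -0.79 and -1.35 in wild type and -1.25, -0.999 and -1.29 in the knockout, a difference of -0.11 ± 0.16. Cldn15, a pore-forming claudin, read -2.55, -2.59 and -2.84 against -2.21, -2.66 and -2.47 (difference 0.22 ± 0.14). Cldn12 differed by -0.07 ± 0.17 and Cldn23 by -0.05 ± 0.08. Cldn14 read -2.84, -3.42 and -3.81 against -3.41, -3.48 and -3.56 (difference -0.13 ± 0.24), with the wild-type arrays on both sides of the knockout arrays. Of the 7 tested claudins 2 lay above and 5 below 0, with a median of -0.05.

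Lsr, which encodes an angulin of junctions where 3 cells meet and lies on chromosome 7, was lower in every knockout array without passing. It read 0.28, 0.47 and 0.79 in wild type and -0.01, -0.12 and 0.15 in the knockout, so the highest knockout array lay under the lowest wild-type array. The difference was -0.51 ± 0.15 (SE, n = 3 per group, limma adjusted p = 0.344; 95% interval -0.87 to -0.15), or 70.4% of wild type, and the exact permutation p was 0.1. Lsr was highest on wild type replicate 3, the array with the highest keratinocyte signal, and without it the difference was -0.37. The part of keratinocyte RNA in the Lsr difference was not tested. Marveld2, which encodes tricellulin of the same contacts, read -2.48, -2.48 and -2.37 against -2.32, -2.59 and -2.52, a difference of -0.04 ± 0.10. Marveld3 read -3.21, -3.53 and -3.20 in wild type and -3.24, -3.27 and -3.90 in the knockout (difference -0.16 ± 0.20).

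Scaffolds under the tight junction showed small differences. Tjp1, the zonula occludens scaffold that binds claudins to actin, read 4.22, 4.28 and 4.03 in wild type and 4.33, 4.22 and 4.05 in the knockout. The difference was 0.02 ± 0.12 (SE, n = 3 per group; 95% interval -0.26 to 0.30). Magi1, a membrane-associated scaffold, read 3.26, 3.28 and 3.22 against 3.19, 3.35 and 3.16 (difference -0.02 ± 0.09). Its second probe gave -0.21, and the mean over both probes -0.12. The related Magi3 differed by -0.0014 ± 0.15 (0.04 by its second probe) and Cgnl1, which encodes paracingulin, by -0.01 ± 0.13. The polarity gene Pard3 read 0.28, 0.38 and 0.48 against 0.36, 0.51 and 0.55 (difference 0.10 ± 0.10), and its 3 other probes gave 0.07 to 0.16. Pard6a, its partner in the polarity complex, read -0.33, -0.34 and -0.13 in wild type and -0.53, -0.27 and -0.23 in the knockout, a difference of -0.07 ± 0.12.

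Tjp3, the epithelial member of the family, varied most of all tested members, with an SD of 0.72 over the 6 arrays. It read -3.12, -3.11 and -1.29 in wild type and -2.79, -2.49 and -1.99 in the knockout, with slide 2 high in both genotypes and wild type replicate 3 the highest. Its difference of 0.09 ± 0.52 (SE, n = 3 per group) became 0.69 without wild type replicate 3, and the 95% interval of -1.15 to 1.33 sets little limit. The 7 tested scaffold and polarity members had a median of -0.0014.

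Of the connexins, 3 of 7 could be tested and none separated the genotypes. Gja1, a widely expressed connexin, read 1.22, 1.02 and 0.74 in wild type and 1.47, 1.49 and 0.93 in the knockout. The difference of 0.30 ± 0.19 (SE, n = 3 per group, limma adjusted p = 0.938) has an interval of -0.16 to 0.77, and slide 2 held the lowest array of each genotype. Gjc1, a connexin of smooth muscle and early vessels, read 1.12, 1.27 and 1.19 against 1.13, 1.11 and 1.10 (difference -0.08 ± 0.08). Gja3, known from the lens, was near background, at -4.04, -3.61 and -3.67 against -3.66, -4.17 and -3.91, a difference of -0.14 ± 0.17.

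Slide differences exceeded genotype differences about as often among the members as over everything tested. In 25 of the 36 tested members (69.4%) the slide difference exceeded the genotype difference, as it did in 66.3% of everything tested. In the fit with both terms, 6 members (16.7%) differed between slides (limma adjusted p under 0.05), against 10.5% of everything tested. Clec14a, Pecam1, Gja1, Ctnnd1 and Jam3 were lower on slide 2, by differences of -0.67, -0.66, -0.46, -0.46 and -0.36, and Tjp3 was higher, by 1.24. Each slide was also 1 scanning session, so slide and scan cannot be told apart.

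Among the 12 members below the filter, several were read on wild type replicate 3 alone. Cdh11, the cadherin of mesenchyme, was well above background on that array only, at -0.42, against -6.66 to -4.62 on the other 5, and its second probe likewise (-3.01 against -7.01 to -5.85). Gjb6 was at -1.59 there and -6.24 to -4.46 elsewhere, and Cldn3 at -2.90 against -7.51 to -4.42. Cgn, which encodes cingulin, was at -2.97 there and -6.96 to -5.42 elsewhere. Gjb2, a connexin of epidermis, was well above background on wild type replicates 2 and 3 and knockout replicate 3, at -3.68, -1.29 and -4.73. Gjc3, the connexin of Schwann cells, was above background on replicate 3 of both genotypes, at -3.78 and -4.03.

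The other 6 members below the filter were well above background on none of the arrays: Cldn1, Cldn6, Cldn10, Ocln, Ctnna2 and Gja6. Ocln encodes occludin, and both of its probes were dim. Cldn1, the claudin of the epidermal barrier, stayed dim also on wild type replicate 3, where the keratinocyte sum was 37.7. The part of keratinocyte RNA in the wild type replicate 3 readings was not tested.

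**Figure D3:**
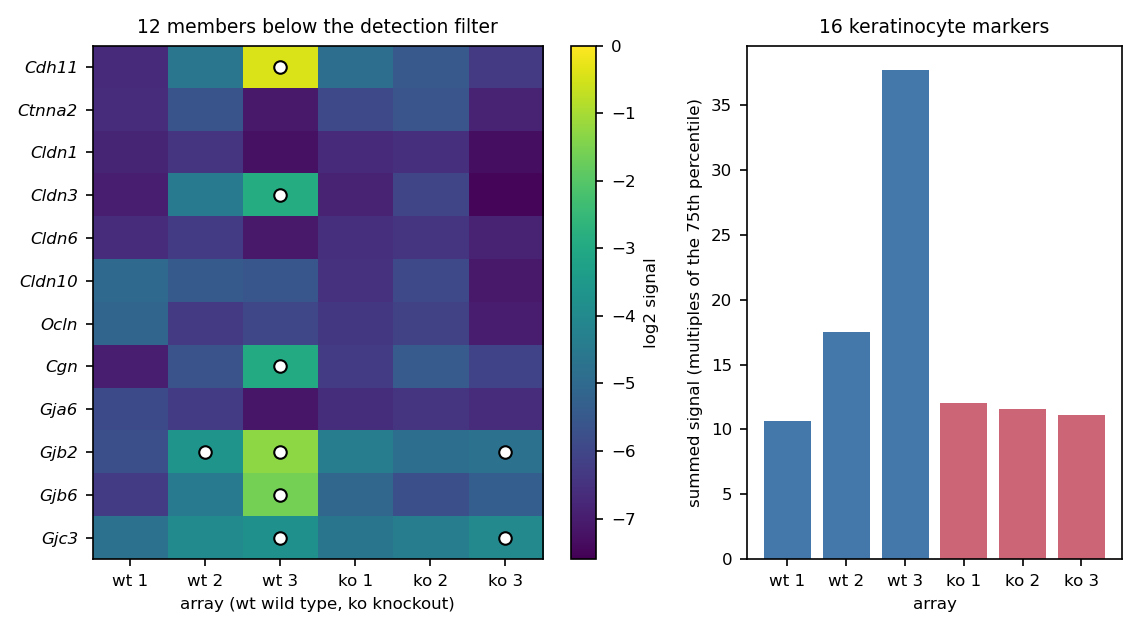
Left, log2 signals of the 12 members that failed the filter are shown by colour for each array, with a white dot where the probe was well above background; right, bars give the summed signal of 16 keratinocyte markers per array. Wild type replicate 3 has the highest sum, 37.7, and holds most of the dots.

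Beyond the 48 members, 104 further genes of the junction machinery were listed by name, 103 of them with a probe and 67 tested. Of these 67, 1 fell and 0 rose (limma, adjusted p under 0.05), against 0.186% lower and 0.371% higher over everything tested. The median difference was 0.02, and 13 of 67 had separated genotypes (19.4%, against 12.2% of everything tested). The count that fell was 0 with the replicate number as a block, with no filter on dim probes, and without wild type replicate 1 or 2 or knockout replicate 1 or 2.

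The 20 tested protein-coding genes nearest to each of Cldn11, Jam2 and Lsr (10 on each side) held 0 called, against 0.557% of everything tested. Of these neighbours 1, 2 and 3 did not overlap between genotypes, against 12.2% of everything tested. Counts this small do not set the neighbourhoods apart from everything tested.

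Prkcz, an atypical kinase of the polarity complex on chromosome 4, read -0.03, 0.03 and 0.13 in wild type and 0.66, 0.54 and 0.73 in the knockout. Its difference of 0.60 ± 0.09 did not pass (limma adjusted p = 0.0681) except with the slide as a block (0.0318). Gja4, an arterial connexin, differed by -0.39 ± 0.16, in a connexin and pannexin list with 6 tested genes and a median of -0.20. In the cadherin and adherens plaque list Nectin2 differed by 0.17 ± 0.09 and Arvcf by -0.14 ± 0.09, with all 16 tested genes within 0.2 of 0.

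All 14 genes listed for junction control by Rap1 and cerebral cavernous malformation signalling, Rock1 and Rock2 among them, lay within 0.2 of 0 as well. Those with the smallest p were Radil (0.19 ± 0.13) and Rock2 (0.11 ± 0.08). All 9 further endothelial border genes also lay within 0.2 of 0, with Cd99 at -0.19 ± 0.10 and Icam2 at -0.15 ± 0.09. Desmosome genes, which hold epidermal cells together, had a median of -1.16 over 7 tested genes, 6 of them below 0 and none passing. Ppl differed by -1.16 ± 0.68, which is also the median of the list, and Evpl by -0.58 ± 0.41. Ppl passed the filter through wild type alone, and Dsp through the knockout alone. The median of the list was -0.06 within slide 1 and -2.74 within slide 2. Slide 2 holds only replicate 3 of each genotype, and wild type replicate 3 had the highest keratinocyte sum. Dsp, Perp and Dsg3 are in both the desmosome and the keratinocyte list, so the lists are not independent. The part of keratinocyte RNA in the desmosome differences was not tested.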

How the data were processed

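Per the file headers, the scanner files give each spot's Cy3 intensity after background subtraction and detrending in Agilent Feature Extraction 10.7.3.1. In the value table that the authors deposited, each array's intensity is multiplied by 1 constant. Control spots and 126 to 179 outlier spots per array were left out, none being saturated. Intensities were taken to log2 minus the array's 75th percentile, and spots of a probe were averaged. The share of the 55681 probes called well above background was 50.3% to 58.0% per array. A gene was represented by its brightest tested probe. Symbols came from RefSeq by accession, given to 97.7% of curated accessions. Differences were fitted on everything tested with limma 3.58.1 in R 4.3.3 (lmFit, eBayes, genotype only), two-sided, adjusted by Benjamini-Hochberg at 0.05. Members and lists were chosen with earlier results of these data known.

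Values per array were given for up to 3 members per class with the smallest p, for members with separated genotypes, for the 8 with the largest spread, and for Cdh5, Pecam1, Cldn5, Esam and Gja1. Of the other junction genes, those called and the 2 of each list with the smallest p were to be named; some of these are not reported here. The fit was tested on simulated data with 200 genes changed. Same-numbered samples deviated together (correlations of 0.23, 0.15 and 0.65), all over 0.1. The replicate number was used as a block in an alternative fit. The main fit held genotype only, so its p-values leave out any pairing. On slide 1 the pairs of unlike number correlated more (0.36 and 0.28) than those of like number, so number and slide are not told apart by this check. The slide block was planned. The slide difference as a description, the neighbour counts and the use of median signals for normexp, since the files hold no mean signal, were added after the data were seen. The number of arrays limits the precision.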

Additional observations from a re-analysis of the deposited data

How the results depend on the processing

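No member was past the threshold in any setting except Cldn11 with the slide as a block, which made 1 higher and left 0 lower. Of the 36 tested members, 15 kept their sign under every alternative run for them, which was 14 each except for Gja3, with 13, since it fails the filter for all 6 arrays. Normexp turned Ctnnd1 to -0.00291, Cldn23 to 0.0287 and Tjp3 to -0.0736, the authors' deposited values turned Cldn5 to 0.0116, Cgnl1 to 0.00507 and Magi3 to 0.0129, and the mean over probes turned Magi3 to 0.0208; the cause was not tested. Leaving out 1 array took these differences across 0: Cdh13 (-0.00718 to 0.20), Pcdh1 (-0.11 to 0.0102), Ctnna1 (-0.0234 to 0.16), Ctnnd1 (-0.16 to 0.15), Jam3 (-0.11 to 0.13), F11r (-0.00992 to 0.18), Cd99l2 (-0.0915 to 0.10), Clec14a (-0.31 to 0.14), Cldn5 (-0.0539 to 0.0502), Cldn7 (-0.25 to 0.0328), Cldn12 (-0.21 to 0.0599), Cldn14 (-0.36 to 0.13), Marveld2 (-0.11 to 0.0175), Marveld3 (-0.27 to 0.0597), Tjp1 (-0.0533 to 0.0964), Tjp3 (-0.22 to 0.69), Cgnl1 (-0.0923 to 0.076), Magi1 (-0.0807 to 0.0163), Magi3 (-0.11 to 0.12), Pard6a (-0.13 to 0.0175). With 1 array left out the MARVEL and angulin median ran from -0.27 to -0.01, and the connexin median was 0.11 where probes had to be above background on all 6 arrays.

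Over everything tested 90 rose and 45 fell; with the slide as a block these were 190 and 101, with the replicate block 4 and 1, and with no filter on dim probes 3 and 0. Leaving out 1 array gave 11 to 46 higher and 2 to 27 lower. Of the other junction genes 0 rose and 1 fell; with the slide as a block 1 (Prkcz) rose, with the replicate block or no filter 0 fell, and with 1 array left out 0 to 1 fell. The replicate block also ended the call of Aplnr (adjusted p = 0.0782) and changed no call of a member. Probes near background limit 12 members to a detection call.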
